A study of Mus musculus with 6 samples.

Results

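The chondroitin sulfate proteoglycans of the brain matrix, the tenascins that bind them and their link proteins are described here by 10 genes, Acan, Bcan, Ncan, Vcan, Tnr, Tnc, Hapln1, Hapln2, Cspg4 and Cspg5. The 10 were chosen by symbol from the 32285 genes of the count matrices, and all 10 were found, each under 1 identifier. The data are single-nucleus RNA sequencing of brains without olfactory bulbs and cerebellum from C57BL/6 S-56 mice. The mice received 5 µl of lysophosphatidic acid (LPA), a lipid of blood and serum used here to model post-hemorrhagic hydrocephalus, or of the vehicle into the right lateral ventricle at postnatal day 7 (P7), and brains were taken at P15. Each group has 3 libraries of 1 mouse each, named LPA 1 to LPA 3 and vehicle 1 to vehicle 3, and both groups were injected, since the vehicle also went into the ventricle in its carrier of bovine serum albumin in buffered saline. Nuclei were sorted as negative for NeuN, a protein of neuronal nuclei, so the neurons described are those that passed this gate.

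The brain has little fibrous collagen, and its extracellular matrix is built on hyaluronan, a long sugar chain. The lecticans (aggrecan from Acan, brevican from Bcan, neurocan from Ncan and versican from Vcan) bind hyaluronan at one end of the protein and tenascins at the opposite end, and link proteins such as those from Hapln1 and Hapln2 lock the lectican to hyaluronan. In the brain this mesh forms the perineuronal nets around some neurons and the coats of nodes of Ranvier, and astrocytes and oligodendrocyte precursor cells (OPCs) are known to supply much of it, also after injury.

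Positions are given on the GRCm38 build, the one the files use. Acan lies at chr7:79053483-79115099 on the plus strand, Bcan at chr3:87987531-88000230 on the minus strand, Ncan at chr8:70093085-70120873 on the minus strand and Vcan at chr13:89655312-89742509 on the minus strand. Tnr lies at chr1:159523769-159931729 on the plus strand and Tnc at chr4:63959785-64047015 on the minus strand. Hapln1 lies at chr13:89539796-89611652 on the plus strand, Hapln2 at chr3:88021750-88027583 on the minus strand, Cspg4 at chr9:56865033-56899870 on the plus strand and Cspg5 at chr9:110243783-110262576 on the plus strand. A lectican thus lies beside a link protein at both Bcan and Hapln2, which are 21519 bases apart, and Vcan and Hapln1, which are 43659 bases apart. Libraries were made with a 3′ end kit, and reads in introns were counted as well as those in exons.

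The upstream sequences of the 4 genes with the clearest differences between oligodendrocyte stages, 3 of them highest early and Hapln2 highest in mature cells, are shown so that their sequence can be set beside their levels. They are up to 250 bases before the gene start from RefSeq on GRCm38.p6, written 5′ to 3′ on the strand of the gene, without the bases that lie inside the annotated gene. RefSeq windows were found for 9 of the 10 members, all but Cspg5. The windows are chr13:89742513-89742762 (minus strand) for Vcan, chr1:159523519-159523768 (plus strand) for Tnr, chr9:56864854-56865032 (plus strand) for Cspg4 and chr3:88027584-88027761 (minus strand) for Hapln2. Capitals mark matches on either strand to 4 motifs, the Sox core ACAAAG, the E box CAGCTG, the TATA box TATAAA and the GC box GGGCGG.
Vcan: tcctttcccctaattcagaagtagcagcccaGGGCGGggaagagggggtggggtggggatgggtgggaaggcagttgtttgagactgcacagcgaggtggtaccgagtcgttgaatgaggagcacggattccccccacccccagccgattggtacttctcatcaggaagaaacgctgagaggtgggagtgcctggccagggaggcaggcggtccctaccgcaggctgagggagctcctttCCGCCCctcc
Tnr: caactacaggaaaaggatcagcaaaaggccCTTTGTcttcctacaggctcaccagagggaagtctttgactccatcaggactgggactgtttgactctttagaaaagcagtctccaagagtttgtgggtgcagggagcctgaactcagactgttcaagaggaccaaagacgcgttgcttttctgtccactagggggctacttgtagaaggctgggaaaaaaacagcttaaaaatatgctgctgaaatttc
Cspg4: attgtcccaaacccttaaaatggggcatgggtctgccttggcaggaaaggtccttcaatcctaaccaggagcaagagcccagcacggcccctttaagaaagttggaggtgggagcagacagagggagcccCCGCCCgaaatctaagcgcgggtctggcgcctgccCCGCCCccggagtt
Hapln2: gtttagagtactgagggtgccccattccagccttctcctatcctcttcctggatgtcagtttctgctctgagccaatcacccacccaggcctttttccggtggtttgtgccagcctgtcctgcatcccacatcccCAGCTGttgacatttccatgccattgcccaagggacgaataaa
Vcan and Cspg4 each held 2 GC boxes, with a GC content of 62.4% and 60.3%, against a median of 52.0% over the windows of 27025 genes. Tnr, at 46.8% GC, held 1 Sox core and Hapln2, at 53.4% GC, held 1 E box, and none of the 4 windows held the TATA letters. In the windows of all 27025 genes, GGGCGG was found in 32.9%, ACAAAG in 16.5%, CAGCTG in 12.8% and TATAAA in 3504 windows, so these matches are common and describe the letters only.

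The LPA libraries held 8836 to 10606 barcodes with 50737541 to 54715094 unique molecular identifiers (UMIs, counted transcripts), and the vehicle libraries 8639 to 12894 barcodes with 48852970 to 65688644 UMIs. After filtering, 57443 nuclei remained, of which 47880 (83.4%) were placed in 20 cell types by marker genes that exclude the 10 members, with 13045 in the oligodendrocyte lineage, 10296 in astrocytes and 13809 in neurons. Every list of markers had all its genes detected in its type. The markers were highest in their own type for 7 of 8 OPC markers, 6 of 8 for Gfap-rich astrocytes and all 8 for ciliated ependymal cells. They were so for 4 of 7 in telencephalic-type astrocytes and 4 of 7 in newly formed oligodendrocytes. Only 2 of 8 were highest in the nuclei with Dlx genes, which are called Dlx-rich neuronal nuclei below. Cycling OPCs, judged by the same 8 markers as OPCs, had 0 of 8. Types are named for markers, so each stands for nuclei that are OPC-like, astrocyte-like and so on. Pairs of libraries shared 16 to 39 barcodes, or 0.211% to 0.400% of the smaller library. Sex-linked genes put LPA 1 with vehicle 1 and vehicle 3 as male, and LPA 2, LPA 3 and vehicle 2 as female. Levels below are counts per 1e6 UMIs of that cell type in a library (CPM), with the mean ± SD over 3 libraries, and they are compared between cell types and groups but not between genes.

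The members were highest in astrocytes or in stages of the oligodendrocyte lineage, except Cspg4, whose highest mean was in pericytes and smooth muscle cells, and the order of types differed between members. Aggrecan (Acan) was the scarcest. It was highest in OPCs at 31.6 ± 7.40 CPM in the vehicle libraries (110 UMIs in all), above committed precursors, the cells leaving the precursor stage, at 16.7 ± 4.87 CPM with no overlap between the 2 ranges. The other 16 types tested were at or below 8.26 CPM, and pericytes and smooth muscle cells had no Acan UMI in the vehicle libraries. Brevican (Bcan), the lectican of mature glia, was highest in telencephalic-type astrocytes at 1151 ± 153 CPM, and their range overlapped that of Slc6a11 Agt astrocytes at 962 ± 129 CPM, which overlapped that of newly formed oligodendrocytes at 952 ± 112 CPM. The next types were at 660 ± 89.6 CPM in Gfap-rich astrocytes and 630 ± 82.9 CPM in OPCs, which overlapped, and its lowest level was 51.1 ± 10.0 CPM in mature oligodendrocytes.

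Neurocan (Ncan), a lectican of the developing brain, followed the astrocytes more closely. Its mean was 290 ± 26.7 CPM in telencephalic-type, 273 ± 13.4 CPM in Gfap-rich and 209 ± 26.8 CPM in Slc6a11 Agt astrocytes, of which the first 2 overlapped. OPCs were next at 138 ± 27.7 CPM, with no overlap with any astrocyte subtype. Versican (Vcan), which is also made as a short form at nodes of Ranvier, was carried by the early oligodendrocyte lineage. The 3 earliest stages were alike within their ranges, at 770 ± 51.2 CPM in OPCs, 749 ± 41.0 CPM in committed precursors and 689 ± 42.8 CPM in cycling OPCs. The next type, newly formed oligodendrocytes, was at 159 ± 23.5 CPM with no overlap, and mature oligodendrocytes were lowest at 15.1 ± 3.05 CPM.

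Tenascin-R (Tnr), which cross-links lecticans in perineuronal nets, was highest at a later stage than Vcan. It was 9317 ± 68.3 CPM in committed precursors, 7076 ± 396 CPM in newly formed oligodendrocytes, 3494 ± 108 CPM in OPCs and 2861 ± 195 CPM in cycling OPCs, and none of these ranges overlapped. Its level in mature oligodendrocytes was 49.7 ± 6.47 CPM, the lowest of the 18 types. Outside the lineage it was highest in ciliated ependymal cells, which line the ventricles, at 668 ± 30.9 CPM, overlapping Gfap-rich astrocytes at 534 ± 183 CPM. A Tnr UMI was found in all committed precursors and in 68.0% ± 6.63 of ciliated ependymal nuclei. It was also found in 19.8% ± 6.49 of microglia, a type not known to make it, so a share near that value need not mean expression. Free RNA was not measured. Shares also depend on UMIs per nucleus, with vehicle library medians of 1242 to 1472 in microglia and 2271.5 to 3036 in ciliated ependymal cells. Tenascin-C (Tnc), a tenascin of immature and injured tissue, was an astrocyte gene instead, at 420 ± 47.1 CPM in Gfap-rich, 209 ± 4.82 CPM in telencephalic-type and 156 ± 21.5 CPM in Slc6a11 Agt astrocytes with no overlap among the 3. It was 65.7 ± 11.0 CPM in Dlx-rich neuronal nuclei and at or below 32.6 CPM elsewhere.

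The link proteins divided between astrocytes and myelinating cells. Hapln1 stood at 166 ± 15.5 CPM in telencephalic-type astrocytes, above 34.6 ± 8.29 CPM in Slc6a11 Agt and 29.2 ± 17.02 CPM in Gfap-rich astrocytes, which overlapped. Hapln2, the link protein of nodes of Ranvier, was at 282 ± 10.9 CPM in mature oligodendrocytes and at or below 19.2 CPM in every other type. A Hapln2 UMI was present in 53.1% ± 2.12 of mature oligodendrocyte nuclei against 2.67% ± 0.458 of microglia.

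Cspg4 and Cspg5 encode proteoglycans that span the cell membrane. Cspg4, known as NG2 and used as a marker of OPCs and pericytes, was 469 ± 60.4 CPM in pericytes and smooth muscle cells, 416 ± 68.6 CPM in OPCs and 415 ± 183 CPM in cycling OPCs, whose ranges overlapped. It was 43.5 ± 18.1 CPM in committed precursors, so it was low by the stage at which Tnr was highest. Cspg5, known as neuroglycan C, was similar in telencephalic-type astrocytes (864 ± 67.1 CPM), OPCs (841 ± 54.1 CPM) and cycling OPCs (731 ± 66.8 CPM). It was 404 ± 33.8 CPM in Gfap-rich astrocytes and 61.5 ± 14.9 CPM in committed precursors.

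**Figure D1:**
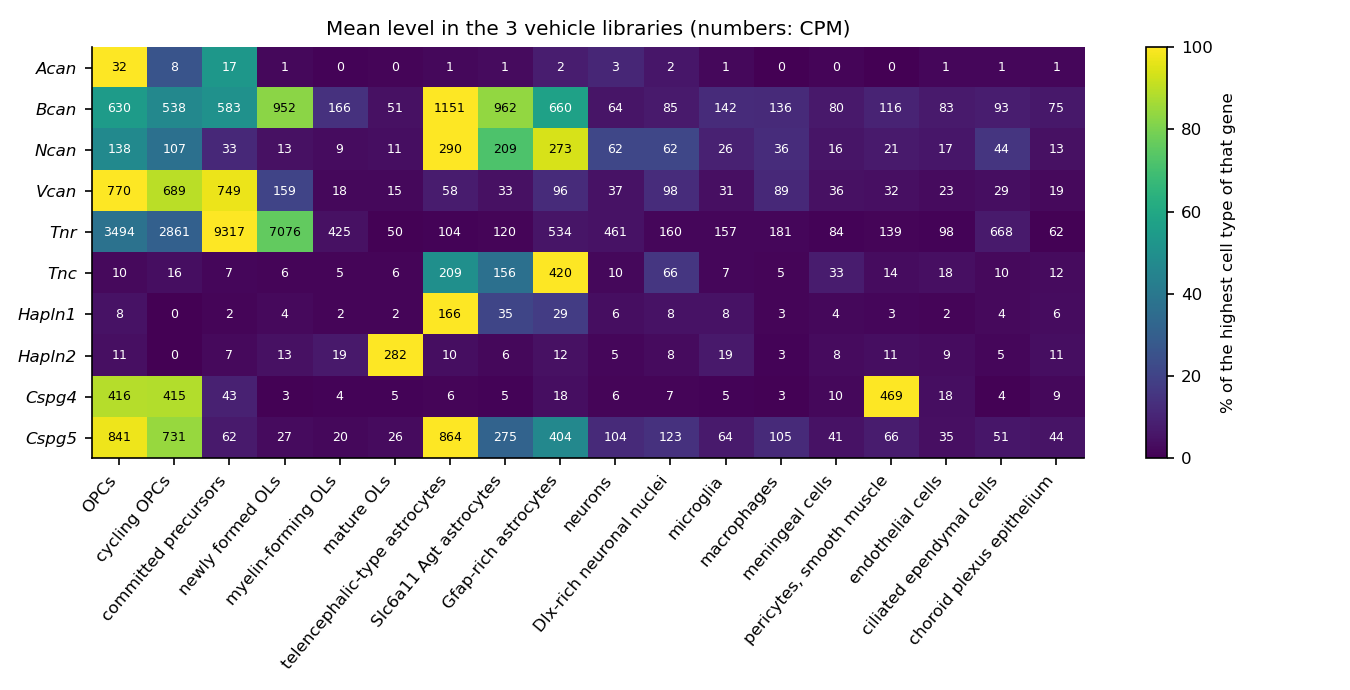
Levels of the 10 genes (rows) in 18 cell types (columns) in the vehicle libraries. The number in a cell is the mean CPM of 3 libraries and the colour is that mean as a percentage of the highest type of the same gene, so colours may be compared along a row only. Brighter colours are higher levels. Vcan, Tnr and Acan are bright in early oligodendrocyte stages, and Cspg4 in OPCs and in pericytes and smooth muscle cells. Hapln2 is bright in mature oligodendrocytes (282 CPM), and Bcan, Ncan, Tnc, Hapln1 and Cspg5 in astrocytes. Bcan is also bright in newly formed oligodendrocytes and Cspg5 in OPCs.

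The members' patterns over the 18 types were each compared with those of all 13065 genes that passed the filter, by Pearson's r of the log2 level, as a description over types that share libraries. The most similar genes were Lhfpl3 for Acan (r = 0.918), Garem2 for Bcan (0.941), Fut9 for Ncan (0.961), A930009A15Rik for Vcan (0.938), Slc4a4 for Tnc (0.921), Slc1a2 for Hapln1 (0.972), Cyp2j12 for Hapln2 (0.946), Spry1 for Cspg4 (0.864) and Etv4 for Cspg5 (0.943). In second place were Vxn for Acan (0.907), Gpr37l1 for Bcan (0.913), Ntm for Ncan (0.958), Npas1 for Vcan (0.906), Fzd1 for Tnc (0.917), Dio2 for Hapln1 (0.969), Gjb1 for Hapln2 (0.921) and Pcmtd2 for Cspg4 (0.834). For Tnr the most similar genes were Gm38039 (0.953) and Neu4 (0.910). Lhfpl3, Slc4a4, Slc1a2 and Neu4 were also among the markers, Neu4 for committed precursors, the type where Tnr was highest. Gm38039 is an annotated gene that overlaps Tnr, so reads of both may have been split between them. Vcan and Tnc also overlap annotated genes in the same way.

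The first question of the design is whether LPA changed these genes within a cell type. The genes were tested on UMIs summed per library and type with edgeR's quasi-likelihood test, and a gene was called at an adjusted p (Benjamini-Hochberg over all genes of the type) under 0.05 where the log2 fold change was also 0.25 or more in either direction. In the 6 oligodendrocyte stages, 0 of 44 member tests were called. At an unadjusted p under 0.05 there were 5, with the 44 log2 fold changes between -1.12 and 0.37. Over all genes, 0.175% were called in OPCs, 0.00% in cycling OPCs, 0.0983% in committed precursors, 0.116% in newly formed, 0.260% in myelin-forming and 0.887% in mature oligodendrocytes, so few genes of any kind were called in a stage. DESeq2 also called no member in these stages.

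In OPCs all 10 members were tested. Vcan was 692, 711 and 854 CPM in the LPA libraries and 726, 758 and 826 CPM in the vehicle libraries, a log2 fold change of -0.01 with a 95% interval of -0.17 to 0.14. Tnr was 3591, 3429 and 3753 CPM against 3575, 3372 and 3536 CPM, at 0.06 (-0.04 to 0.16). Cspg4 was 402, 413 and 385 CPM against 490, 354 and 404 CPM, at -0.03 (-0.20 to 0.14). Cspg5 was at -0.03 (-0.17 to 0.10) and Bcan at -0.08 (-0.23 to 0.08). For Vcan, Tnr, Cspg4, Cspg5 and Bcan the groups overlapped and the interval stayed within 0.25 in either direction. These intervals take edgeR's standard error with a normal quantile, which makes them narrow for 3 against 3 libraries. The vehicle libraries alone ran from 354 to 490 CPM for Cspg4 and from 567 to 724 CPM for Bcan. A change of 0.25 is therefore not excluded. Acan, at -0.23 (-0.67 to 0.21), and Tnc, at -0.10 (-0.72 to 0.51), had wider intervals, as 110 and 41 UMIs stood behind their vehicle values.

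The lower values in OPCs did not pass. Ncan was 99.6, 120 and 111 CPM in LPA and 170, 123 and 121 CPM in vehicle libraries, a log2 difference of -0.28 ± 0.11 (SE; edgeR's quasi-likelihood test, Benjamini-Hochberg adjusted p = 0.548). Its groups did not overlap, though the gap between LPA 2 and vehicle 3 was small. Hapln2 was 4.90, 7.37 and 3.29 CPM against 7.62, 16.5 and 9.37 CPM (-1.12 ± 0.36, adjusted p = 0.387 in edgeR's quasi-likelihood test). It rests on 33 UMIs in LPA and 44 in vehicle OPCs, in a type where the gene is near its background.

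In later stages the values of 3 genes stood out without passing. Acan in committed precursors was 7.34, 6.72 and 9.62 CPM in LPA and 21.0, 11.4 and 17.9 CPM in vehicle libraries, with no overlap (log2 -1.05 ± 0.37, edgeR quasi-likelihood adjusted p = 0.646, 30 and 36 UMIs). Vcan in newly formed oligodendrocytes was 221, 166 and 187 CPM against 133, 179 and 166 CPM, with overlap (0.26 ± 0.12, edgeR quasi-likelihood adjusted p = 0.934). Hapln2 in mature oligodendrocytes, its main source, was 328, 332 and 320 CPM against 295, 278 and 275 CPM. All 3 LPA libraries lay above all vehicle libraries by a log2 fold change of 0.23 ± 0.06, which missed both limits (edgeR quasi-likelihood adjusted p = 0.0812). Tnr at its peak, in committed precursors, was 10017, 9633 and 9679 CPM against 9370, 9240 and 9342 CPM (0.08, 95% interval -0.01 to 0.17).

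**Figure D2:**
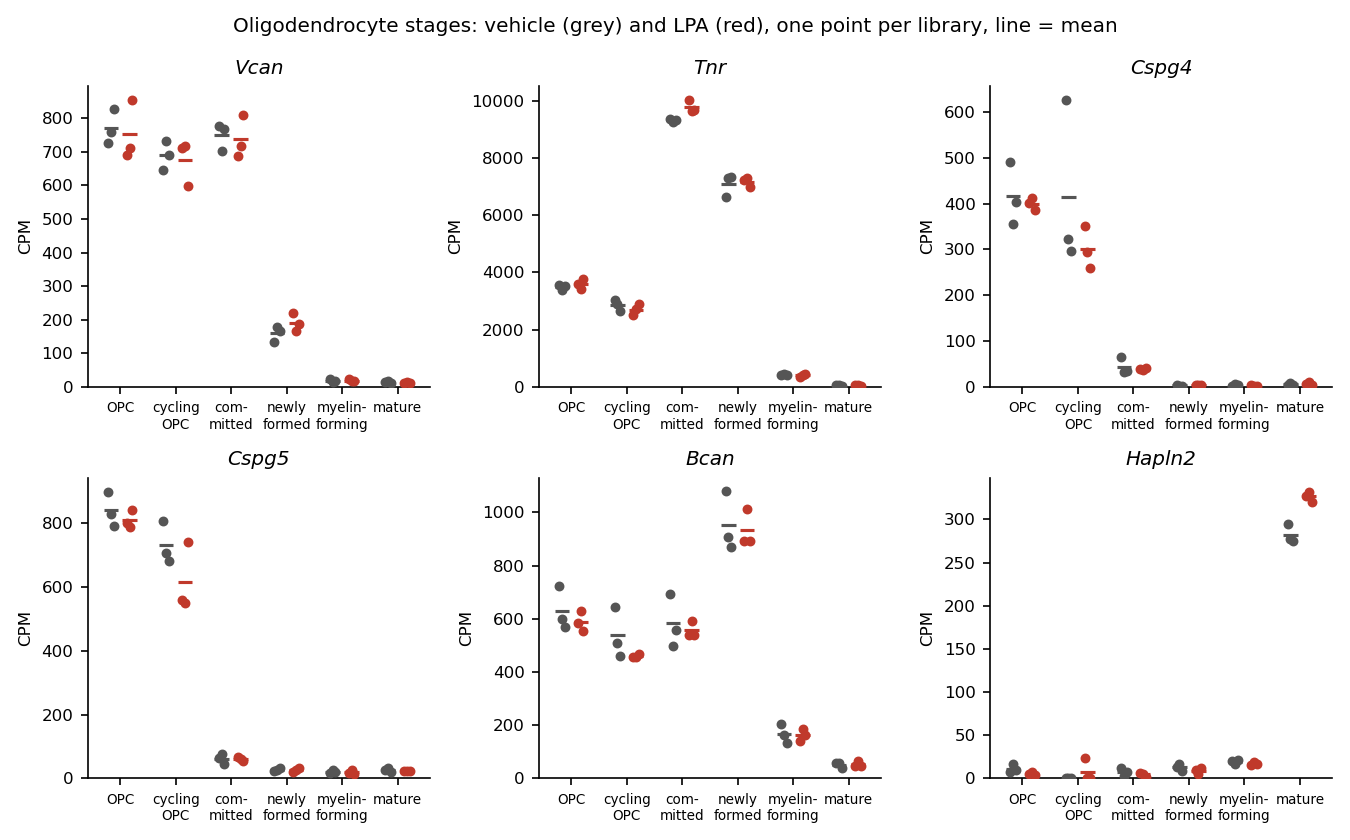
CPM of 6 members in 6 oligodendrocyte stages, with 1 point per library (vehicle grey, LPA red) and lines at the group means; each panel has its own axis from 0. The groups lie close together along the stages and are apart for Tnr in committed precursors and Hapln2 in mature oligodendrocytes, neither of which was called, with Tnr highest in committed precursors (9317 CPM in vehicle) and Hapln2 in mature oligodendrocytes (282 and 327 CPM).

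When all stages of the lineage were summed, members did differ between the groups. Of the 10 members, 4 were higher and 1 was lower in LPA, among 15208 genes of which 11.8% were called, 7.51% as higher and 4.26% as lower. Vcan was 266, 278 and 279 CPM in LPA and 171, 177 and 166 CPM in vehicle libraries, a log2 fold change of 0.66 ± 0.06 (edgeR's quasi-likelihood test, adjusted p = 1.04e-05). Tnr was 2795, 2910 and 2699 CPM against 2026, 1884 and 1871 CPM (0.52 ± 0.05, edgeR quasi-likelihood adjusted p = 2.02e-05). The groups of both genes were far apart compared with the spread within them.

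Both membrane proteoglycans were also higher. Cspg4 was 95.5, 99.1 and 76.8 CPM in LPA and 66.8, 55.8 and 46.5 CPM in vehicle libraries (0.67 ± 0.11, edgeR quasi-likelihood adjusted p = 0.000621). Cspg5 was 195, 197 and 174 CPM against 129, 141 and 102 CPM (0.59 ± 0.09, edgeR quasi-likelihood adjusted p = 0.000409). Neither gene overlapped between groups. Hapln2 fell by 0.30 ± 0.08 on the log2 scale, from 109, 112 and 113 CPM in vehicle to 106, 83.1 and 86.2 CPM in LPA libraries (edgeR quasi-likelihood adjusted p = 0.0183). The groups did not overlap, but LPA 1 lay close to the vehicle libraries, and without LPA 2, LPA 3 or vehicle 3 the adjusted p was 0.123, 0.0670 or 0.0828. Bcan (288 to 348 CPM, adjusted p = 0.140 in edgeR's test) and Ncan (27.1 to 34.6 CPM, adjusted p = 0.0791 in edgeR's test) overlapped between groups and did not pass.

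The stages took different shares of the lineage in the 2 groups. OPCs were 28.7% ± 2.12 of lineage nuclei in LPA and 17.5% ± 2.55 in vehicle libraries, and committed precursors 14.6% ± 0.484 and 8.87% ± 0.810. Mature oligodendrocytes were 21.9% ± 3.55 and 33.3% ± 2.16, and myelin-forming oligodendrocytes 24.5% ± 3.29 and 29.8% ± 0.931. None of these 4 overlapped between groups, while newly formed oligodendrocytes were 9.20% ± 0.574 and 9.70% ± 0.917 and did overlap. Each of the 4 had p = 0.1 in a two-sided exact permutation test over 20 assignments, the smallest p that 3 against 3 libraries can give, and 0.129 after adjustment over 9 shares. Nuclei counts cannot tell more cells of a stage from a change in how many nuclei of it were recovered.

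To set the whole lineage beside its stages, the level was computed that each library would have from its own mix of stage UMIs if every stage kept its vehicle level. For Vcan this gave 277 ± 19.4 CPM in LPA, beside a measured 274 ± 7.12 CPM in LPA and 171 ± 5.47 CPM in vehicle libraries. For Tnr it gave 2717 ± 125 CPM beside a measured 2801 ± 106 CPM, for Cspg4 92.9 ± 8.99 CPM beside 90.5 ± 11.99 CPM and for Cspg5 198 ± 18.1 CPM beside 189 ± 12.5 CPM. For Hapln2 it gave 82.6 ± 10.4 CPM beside 91.7 ± 12.2 CPM. For the 5 genes called in the whole lineage, the difference between the computed and the measured LPA mean was within 1 SD of the libraries. For the lectican Acan the computed LPA mean was 8.41 ± 0.664 CPM and the measured one 6.40 ± 1.88 CPM. For Ncan they were 39.1 ± 2.83 and 34.6 ± 4.15 CPM, and for Bcan 360 ± 15.3 and 348 ± 40.6 CPM. The computed mean was also the higher for Tnc (7.17 ± 0.153 and 6.17 ± 0.351 CPM) and Hapln1 (3.74 ± 0.117 and 2.79 ± 0.335 CPM), at low levels.

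**Figure D3:**
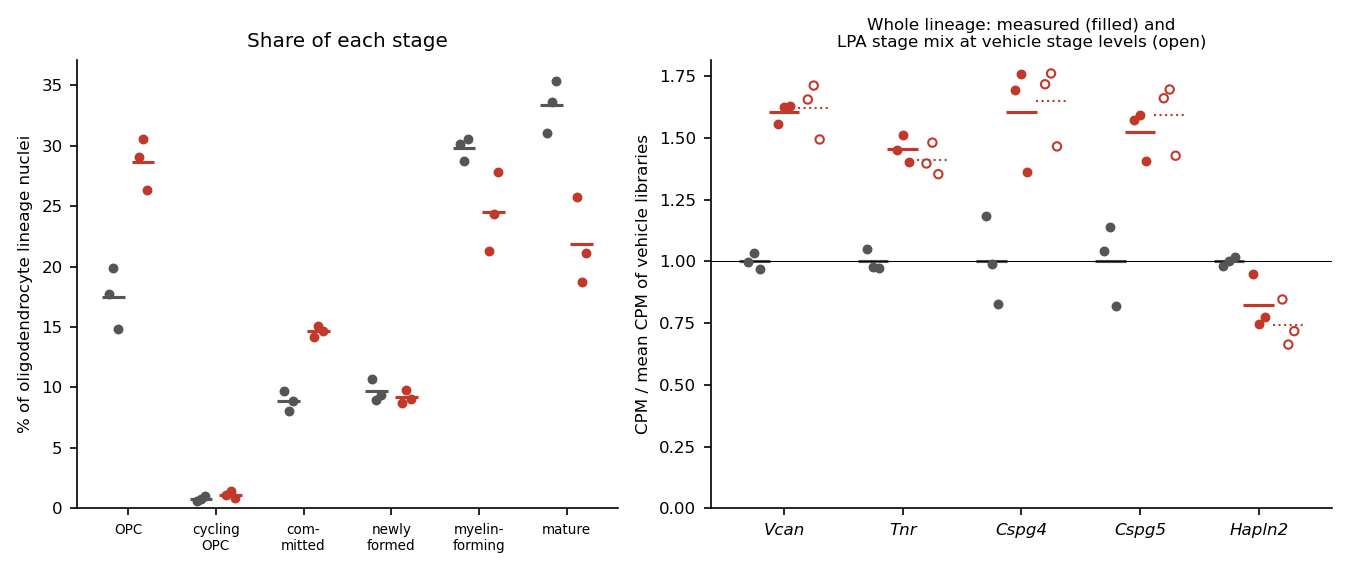
Left, the share of each stage among oligodendrocyte lineage nuclei per library (vehicle grey, LPA red, lines at the means), with OPCs at 28.7% in LPA and 17.5% in vehicle. Right, whole-lineage CPM of the 5 called members divided by the vehicle mean, with measured libraries as filled points and the LPA stage mix at vehicle stage levels as open points; for each gene the open points lie among or near the filled LPA points.

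In all nuclei together, 3 of 10 members were called, all higher in LPA, against 5.62% of 20207 genes (3.41% higher). Vcan was 116, 133 and 119 CPM in LPA and 82.6, 91.7 and 78.3 CPM in vehicle libraries (0.55 ± 0.07, edgeR quasi-likelihood adjusted p = 0.00475). Tnr was 1068, 1196 and 1029 CPM against 898, 839 and 771 CPM (0.40 ± 0.07, edgeR quasi-likelihood adjusted p = 0.0148), and 0.0554 without LPA 1. Cspg4 was 44.7, 49.97 and 38.2 CPM against 34.3, 34.2 and 25.9 CPM (0.50 ± 0.12, edgeR quasi-likelihood adjusted p = 0.0491), at the limit, and its adjusted p was between 0.0370 and 0.155 when single libraries were left out. In vehicle libraries the oligodendrocyte lineage held 54.5% ± 2.20 of Tnr UMIs, 48.2% ± 3.32 of Vcan, 42.4% ± 5.63 of Cspg4 and 68.2% ± 5.32 of Hapln2 UMIs. Astrocytes held 58.4% ± 2.86 of Hapln1, 53.4% ± 0.754 of Tnc and 39.0% ± 2.07 of Bcan UMIs.

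Summed over all astrocytes, 0 of the 9 members tested were called by edgeR's quasi-likelihood test or by DESeq2, while 7.79% of 14587 genes were called, and 5 members had an unadjusted p under 0.05. Cspg5 was 499, 532 and 580 CPM in LPA and 676, 627 and 603 CPM in vehicle libraries, without overlap (-0.22 ± 0.07, edgeR quasi-likelihood adjusted p = 0.0589). Vcan was 63.5, 62.8 and 58.3 CPM against 51.9, 56.1 and 51.3 CPM (0.23 ± 0.08, edgeR quasi-likelihood adjusted p = 0.0949). Hapln2 had the largest difference, at 6.10, 6.61 and 4.32 CPM against 8.04, 8.04 and 11.3 CPM (-0.65 ± 0.22, edgeR quasi-likelihood adjusted p = 0.0748). Single members passed under 3 other settings, Hapln2 with no filter on low counts, Cspg5 without LPA 3 and Tnr without vehicle 1. The LPA effect in all astrocytes was also set against that in OPCs with an interaction term and the library as a block. It differed for 0 of 10 members and for 1.23% of 13842 genes, and 2 members had an unadjusted p under 0.05. Cspg5 came nearest, at -0.22 ± 0.07 (edgeR quasi-likelihood adjusted p = 0.132).

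Members were called in only 1 of the 3 astrocyte subtypes. In Slc6a11 Agt astrocytes 0 of 8 and in telencephalic-type astrocytes 0 of 9 members tested were called, against 0.436% and 2.46% of all genes. DESeq2 called none there either, and at an unadjusted p under 0.05 there were 0 and 4. In telencephalic-type astrocytes, where Bcan, Ncan, Hapln1 and Cspg5 are highest, Hapln1 was 146, 152 and 152 CPM in LPA and 182, 165 and 151 CPM in vehicle libraries (-0.11, 95% interval -0.26 to 0.05). Bcan was 1014, 1121 and 1017 CPM against 1327, 1074 and 1052 CPM (-0.10, 95% interval -0.25 to 0.06). Cspg5 was 707, 736 and 751 CPM against 940, 841 and 811 CPM, without overlap (-0.21 ± 0.07, edgeR quasi-likelihood adjusted p = 0.153), and Ncan 236, 254 and 259 CPM against 320, 273 and 276 CPM, without overlap (-0.18 ± 0.08, edgeR quasi-likelihood adjusted p = 0.284). The member with the largest difference was Hapln2, which is near its background there, at 5.55, 6.77 and 2.31 CPM against 9.74, 9.32 and 11.4 CPM, without overlap (-1.002 ± 0.30, edgeR quasi-likelihood adjusted p = 0.0795, 46 and 87 UMIs). It was called with no filter on low counts.

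Gfap-rich astrocytes were named by 8 markers that include Gfap, an intermediate filament gene of fibrous and reactive astrocytes. Not all of their nuclei were rich in these markers, as given below. The type made up 25.005% ± 0.988 of astrocyte nuclei in LPA and 11.1% ± 0.938 in vehicle libraries. Here 3 of 8 members tested were called, 1 higher and 2 lower, against 9.60% of 10413 genes (6.15% higher, 3.46% lower). The link protein Hapln1 was 77.0, 74.5 and 79.3 CPM in LPA and 18.3, 48.8 and 20.6 CPM in vehicle libraries, a log2 fold change of 1.34 ± 0.25 (edgeR's quasi-likelihood test, adjusted p = 0.000678), from 351 and 39 UMIs. The LPA libraries were close to each other and above every vehicle library, of which vehicle 2 was the highest, and the change was 2.08 without vehicle 2.

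Both tenascins fell. Tnc was 226, 305 and 222 CPM in LPA and 365, 445 and 448 CPM in vehicle libraries (-0.65 ± 0.12, edgeR quasi-likelihood adjusted p = 0.000861). Tnr was 289, 336 and 264 CPM against 745, 410 and 448 CPM (-0.70 ± 0.15, edgeR quasi-likelihood adjusted p = 0.00197). Neither gene overlapped between groups, and the high value of vehicle 1 carried part of the change in Tnr, which was -0.43 without it (adjusted p = 0.0141 in edgeR's test). The other members tested, Bcan (599 to 690 CPM in LPA and 569 to 749 CPM in vehicle), Ncan, Vcan, Cspg4 and Cspg5, did not pass. These calls depend on how the nuclei were clustered. At Leiden resolution 2, Hapln1, Tnc and Tnr were not called (-0.27, -0.35 and -0.08, edgeR quasi-likelihood adjusted p = 0.198, 0.0546 and 0.721), and Ncan and Cspg5 were called in their place.

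The Gfap-rich nuclei did not have the same makeup in both groups. Clustered again, they held a sub-cluster led by Ccn1, Gadl1, Aspg and the oncostatin M receptor Osmr, with 459 LPA and 5 vehicle nuclei, and one led by C530044C16Rik, Ccn1, A2m and Neat1, with 256 LPA nuclei and 1 vehicle nucleus. In the first, Hapln1 was 114 to 136 CPM, Tnc 186 to 247 CPM and Tnr 141 to 152 CPM in the LPA libraries. In the second, Hapln1 was 29.0 to 60.5 CPM, Tnc 161 to 219 CPM and Tnr 322 to 447 CPM. Without these 2 sub-clusters, an alternative chosen after seeing the data, 0 members were called, against 1.85% of 8318 genes, and 2 of the 7 tested had an unadjusted p under 0.05. Hapln1 was then 47.4, 44.6 and 45.5 CPM in LPA and 18.4, 48.2 and 20.9 CPM in vehicle libraries (0.54 ± 0.31, edgeR quasi-likelihood adjusted p = 0.510), so that vehicle 2 lay above the LPA libraries. It was 1.24 without vehicle 2, 0.35 without vehicle 1 and 0.32 without vehicle 3, and passed in none of these.

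The tenascins kept lower means in the remaining nuclei but did not pass. Tnc was 274, 387 and 271 CPM against 360, 445 and 450 CPM (-0.40 ± 0.14, edgeR quasi-likelihood adjusted p = 0.174), now with overlap. Tnr was 361, 486 and 340 CPM against 746, 420 and 455 CPM (-0.38 ± 0.16, edgeR quasi-likelihood adjusted p = 0.294), also with overlap, and was -0.11 without vehicle 1. Within the sub-cluster led by Nrg1, Thbs4 and Veph1, which both groups filled, 0 of 6 members tested were called by edgeR's quasi-likelihood test, with 3 at an unadjusted p under 0.05, against 5.35% of 4690 genes. Tnc there differed by -0.57 ± 0.19 (edgeR quasi-likelihood adjusted p = 0.0755), and within the one led by Myoc, Fgd2 and Disp3 by -0.08 ± 0.22. The 8 Gfap-rich markers summed to only 178 to 361 CPM in a sub-cluster of 25 nuclei led by Col25a1, Scn7a and Il1rapl2. In one led by Sfta3-ps, Hpse2 and Col23a1 they summed to 1280 to 1766 CPM in LPA and 201 to 1256 CPM in vehicle libraries. The sub-cluster led by Nrg1 had 1401 to 2867 CPM. Markers of other types moved with the groups over all Gfap-rich nuclei. The 7 telencephalic-type markers summed to 383 to 537 CPM in vehicle and 629 to 652 CPM in LPA libraries, the 7 Slc6a11 Agt markers to 659 to 778 and 370 to 457 CPM, and the 16 oligodendrocyte lineage markers to 2314 to 2838 and 1394 to 1657 CPM. No marker of these lists was at 0, and their part in the results was not tested.

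**Figure D4:**
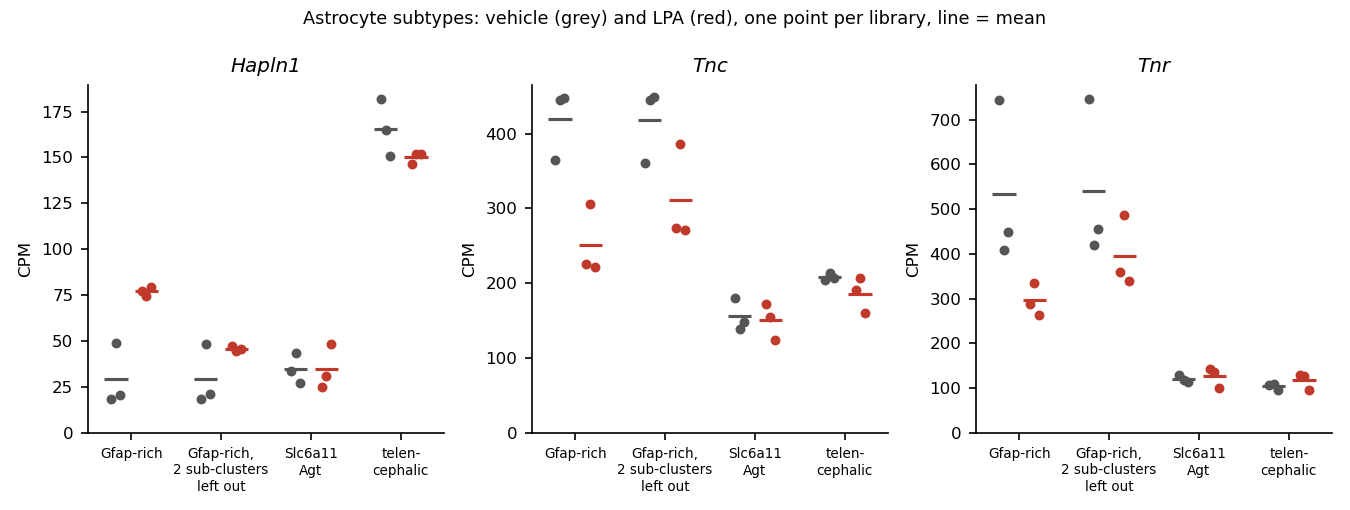
CPM of Hapln1, Tnc and Tnr in 4 groups of astrocyte nuclei, with 1 point per library (vehicle grey, LPA red) and lines at the means. In all Gfap-rich astrocytes the groups are apart (Hapln1 77.0 against 29.2 CPM in the mean), without the 2 sub-clusters of LPA nuclei they overlap, and in the Slc6a11 Agt and telencephalic-type subtypes they overlap.

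The LPA effect in Gfap-rich astrocytes was set against that in the other 2 subtypes together by an interaction term with the library as a block. It differed for 4 of the 9 members tested, against 5.49% of 13463 genes. The difference was 1.44 ± 0.24 for Hapln1 (edgeR quasi-likelihood adjusted p = 3.86e-06), -0.83 ± 0.12 for Tnr (adjusted p = 1.34e-07 in edgeR's test), -0.56 ± 0.12 for Tnc (adjusted p = 0.000348 in edgeR's test) and 0.35 ± 0.11 for Cspg5 (adjusted p = 0.0272 in edgeR's test). Without the 2 sub-clusters it differed for 0 members, against 0.474% of 13290 genes, with Tnr nearest at -0.51 ± 0.14 (edgeR quasi-likelihood adjusted p = 0.0734) and 3 members at an unadjusted p under 0.05. At Leiden resolution 2 it was -0.16 for Hapln1, -0.24 for Tnr and -0.21 for Tnc, which did not pass, while Bcan, Ncan and Cspg5 (-0.33) did.

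Outside the oligodendrocyte lineage and the astrocytes 2 further differences passed. In Dlx-rich neuronal nuclei, which carry genes of developing inhibitory neurons, 1 of 6 members tested was called, against 1.83% of 4647 genes (0.646% higher). Vcan was 395, 374 and 277 CPM in LPA and 117, 129 and 47.2 CPM in vehicle libraries, without overlap (2.24 ± 0.36, edgeR quasi-likelihood adjusted p = 0.0103). Only 28 vehicle UMIs stand behind it, from 15 and 20 nuclei in vehicle 1 and vehicle 2 and 111 in vehicle 3. It was 1.51 without vehicle 3 (adjusted p = 0.287) and 2.18 without LPA 2 (adjusted p = 0.0787).

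These nuclei too were unlike in makeup. The sub-cluster led by 2610307P16Rik, Foxp2 and Syne2 held 65.8%, 61.3% and 46.2% of them in the LPA libraries and 53.3%, 35.0% and 18.9% in the vehicle libraries. Within it Vcan was 498, 468 and 526 CPM in LPA and 201, 172 and 352 CPM in vehicle libraries, from 3, 2 and 11 UMIs in the latter. The 8 Dlx markers summed to 2211 to 2719 CPM in LPA and 1416 to 1902 CPM in vehicle libraries, and the 16 oligodendrocyte lineage markers to 1500 to 1962 and 1542 to 2179 CPM, which overlapped.

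In ciliated ependymal cells 1 of 6 members tested was called, against 1.86% of 8156 genes (0.748% lower). Tnr was 509, 470 and 491 CPM in LPA and 702, 642 and 659 CPM in vehicle libraries, without overlap (-0.45 ± 0.12, edgeR quasi-likelihood adjusted p = 0.0279). The call was lost with a term for sex (adjusted p = 0.0786), with the replicate number as a block (0.0582), with no filter on low counts (0.08004) and with 5 of the 6 libraries left out in turn, where the log2 change remained between -0.40 and -0.50. The 16 oligodendrocyte lineage markers summed to 1113 to 1432 CPM in LPA and 1467 to 1936 CPM in vehicle libraries, with none at 0, and their part in the change was not tested. Tnc in these cells was 21.6, 21.8 and 24.0 CPM against 11.0, 13.02 and 7.16 CPM, without overlap (1.09 ± 0.47, edgeR quasi-likelihood adjusted p = 0.340, 40 and 11 UMIs).

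**Figure D5:**
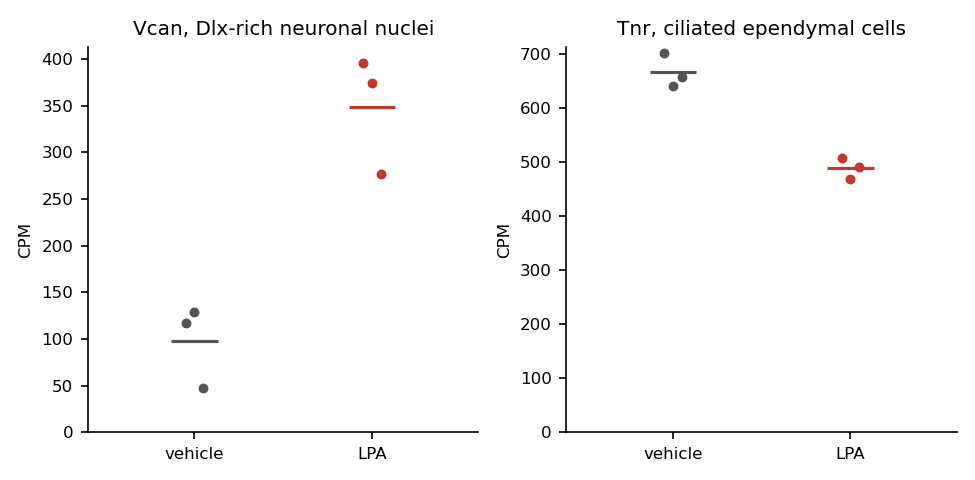
CPM of Vcan in Dlx-rich neuronal nuclei (left) and Tnr in ciliated ependymal cells (right), with 1 point per library and lines at the means. Vcan lies at 277 to 395 CPM in LPA and 47.2 to 129 CPM in vehicle, and Tnr at 470 to 509 CPM in LPA and 642 to 702 CPM in vehicle, with no overlap in either panel.

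Over the 18 types with at least 10 nuclei in every library, 5 of 123 member tests were called and 22 had an unadjusted p under 0.05. Over all genes the share called ran from 0.00% in cycling OPCs to 9.60% in Gfap-rich astrocytes, which held 3 of the 5 calls. No share of all genes is given at the unadjusted limit, here or above, so those counts are not read as results. In neurons 0 of 10 members were called, against 0.0835% of 16772 genes, with Vcan at 41.2, 50.3 and 46.2 CPM in LPA and 33.4, 39.5 and 39.3 CPM in vehicle libraries (0.31 ± 0.09, edgeR quasi-likelihood adjusted p = 0.464). In meningeal cells, the fibroblasts that cover the brain, 0 of 8 were called, against 1.17% of 12292 genes. Tnr there was 104, 151 and 92.3 CPM against 97.0, 85.7 and 69.6 CPM (0.51 ± 0.15, edgeR quasi-likelihood adjusted p = 0.112), near the level at which it was found in types not known to make it. It was called there with no filter on low counts, with the replicate number as a block and without LPA 3. Cspg4 in pericytes and smooth muscle cells, where it is highest, was 531, 495 and 475 CPM against 531, 465 and 411 CPM (0.10, 95% interval -0.12 to 0.33), with 0.417% of 7912 genes called there. Acan passed the filter on low counts in 3 of the 18 types, Hapln1 in 5 and Hapln2 in 8, so for most types these genes were not tested. No member was called in microglia (5 tested, 1.76% of all genes called), macrophages (2 tested, 0.0415%), endothelial cells (7 tested, 0.153%) or choroid plexus epithelium (4 tested, 0.126%), and endothelial cells and choroid plexus had 2 and 1 at an unadjusted p under 0.05 in edgeR's test.

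Of the enzymes that build, sulfate and degrade chondroitin sulfate chains, 14 of 24 were tested in Gfap-rich astrocytes, of which 1 was higher and 2 were lower, where 9.60% of all genes were called (6.15% higher, 3.46% lower). The sulfotransferase gene Chst11 was 294 ± 16.4 CPM in LPA and 221 ± 33.1 CPM in vehicle libraries (0.54 ± 0.12, edgeR quasi-likelihood adjusted p = 0.00297). Chst3, for 6-O-sulfation, was 10.0 ± 1.31 against 24.7 ± 4.31 CPM (-1.16 ± 0.35, edgeR quasi-likelihood adjusted p = 0.0320) and Ust, for 2-O-sulfation of uronic acid, 70.6 ± 14.7 against 139 ± 50.4 CPM (-0.80 ± 0.20, adjusted p = 0.00835 in edgeR's test). The list's median log2 fold change was 0.01, and that of all genes -0.02.

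The same share of all genes, 9.60%, stands beside the other lists. Of the 11 hyaluronan genes 4 were tested in Gfap-rich astrocytes, and 1 was higher. It was Cd44, a receptor for hyaluronan, at 116 ± 11.3 CPM in LPA and 23.9 ± 6.44 CPM in vehicle libraries (2.35 ± 0.23, edgeR quasi-likelihood adjusted p = 1.18e-07). Of the 19 proteases and inhibitors 12 were tested, 2 higher and 1 lower. These were the protease gene Adamts20 (128 ± 7.02 against 68.4 ± 27.0 CPM, 1.04 ± 0.19) and the inhibitors of metalloproteinases Timp2 (61.1 ± 5.59 against 40.4 ± 18.8 CPM, 0.81 ± 0.24, with overlap) and Timp3 (92.9 ± 11.6 against 139 ± 26.5 CPM, -0.50 ± 0.16). Of the 9 receptors 6 were tested and 1 was lower, the tenascin partner contactin 1 (Cntn1; 256 ± 39.7 against 395 ± 62.6 CPM, -0.50 ± 0.13). Of the 16 related proteoglycans and partners 5 were tested and 0 were called by edgeR's quasi-likelihood test. The values of Gfap-rich nuclei hold the 2 sub-clusters of LPA nuclei for these genes as well.

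In telencephalic-type astrocytes 1 gene of the 5 lists was called, where 2.46% of 12829 genes were called. It was Adamts20, 1 of 14 proteases and inhibitors tested, beside 21 enzymes, 7 receptors, 6 related proteoglycans and 5 hyaluronan genes without a call. Adamts20 was 105 ± 21.2 CPM in LPA and 149 ± 22.4 CPM in vehicle libraries (-0.48 ± 0.12, edgeR quasi-likelihood adjusted p = 0.0292), the opposite direction to Gfap-rich astrocytes. In Slc6a11 Agt astrocytes and in OPCs none of the list genes was called, where 0.436% and 0.175% of all genes were called. In meningeal cells 1.17% of 12292 genes were called. There Chst11 (300 ± 36.8 against 216 ± 18.3 CPM, 0.49 ± 0.09), among 19 enzymes tested, was higher. So was the aggrecan-cleaving protease gene Adamts5 (84.9 ± 9.88 against 43.3 ± 13.1 CPM, 0.96 ± 0.17), among 14 proteases and inhibitors. Lower were the integrin gene Itga9 (57.4 ± 8.41 against 97.6 ± 9.49 CPM, -0.74 ± 0.13), among 6 receptors, and the protease gene Adamts9 (159 ± 25.05 against 292 ± 33.4 CPM, -0.87 ± 0.11). None of 12 related proteoglycans and 3 hyaluronan genes was called.

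In the whole oligodendrocyte lineage more of these genes were called. They were 5 of 22 enzymes tested, 3 of 10 related proteoglycans, 1 of 7 receptors and 5 of 15 proteases and inhibitors higher, and 1 of 9 hyaluronan genes and 1 protease lower, where 11.8% of all genes were called (7.51% higher, 4.26% lower). Examples are Xylt1, which starts the chain (773 ± 63.2 against 428 ± 43.6 CPM, 0.84 ± 0.08), Chst11 (244 ± 19.8 against 125 ± 17.4 CPM, 0.95 ± 0.08) and Ptprz1, a receptor phosphatase that carries chondroitin sulfate (659 ± 49.4 against 396 ± 42.2 CPM, 0.72 ± 0.08). Lower were Tnfaip6 (8.04 ± 0.820 against 16.7 ± 0.858 CPM, -1.07 ± 0.12) and Plat, for tissue plasminogen activator (64.8 ± 1.75 against 94.4 ± 2.90 CPM, -0.56 ± 0.06). Within the 6 stages, list genes were called in mature oligodendrocytes only, the stage with the most calls over all genes (0.887%), with Spock3 (0.28 ± 0.06) and Cntn1 (0.31 ± 0.07) higher and Tnfaip6 (-0.98 ± 0.17) lower. The mix of stages differed between groups as given above, and was computed for the members alone.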

How the data were processed

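The authors made the deposited counts with Cell Ranger 4.0.0 on an mm10 pre-mRNA reference, as UMI counts per gene and nucleus, 1 matrix per library, not normalized. Kept nuclei had 300 or more genes, no more than 1% of UMIs from mitochondria, and total UMIs below the third quartile plus 1.5 interquartile ranges (57443 of 63383). They were clustered in scanpy 1.11.5 (3000 variable genes without the members and markers, 40 principal components, 30 neighbors, Leiden resolution 1) and named by markers, leaving 9563 unnamed. Nuclei marked by Scrublet (12.3% to 15.7% per library) were kept, and left out as an alternative. Counts were summed per library and type and tested in R 4.3.3 with edgeR 4.0.16 (TMM, filterByExpr, quasi-likelihood test, Benjamini-Hochberg over all genes of a type), with DESeq2 1.42.0 as an alternative. The groups come from the sample labels. The p-values measure the spread between libraries of 1 mouse each. Members and gene lists were chosen with earlier results of these data known. The genes named are the 10 members, called genes of 5 matrix lists and the 2 genes most like each member, of which 1 is not reported here. Tested on simulated data with 200 genes changed by a log2 of 1, the test recovered 71.5% in OPCs (11413 genes), 53.5% in Gfap-rich astrocytes (10413 genes) and 85.5% in the whole lineage (15208 genes). Changed by a log2 of 0.5, it recovered 27.5%, 3% and 52%. The spread of the simulated counts was estimated without a group term, so these rates need not hold for the real counts.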

Additional observations from a re-analysis of the deposited data

Results flagged for a closer look

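The LPA effect on 4 members differed between Gfap-rich astrocytes and the other astrocyte subtypes by a test of the difference itself (edgeR's quasi-likelihood interaction test with the library as a block). The difference in log2 fold change was -0.83 for Tnr, -0.56 for Tnc, 1.44 for Hapln1 and 0.35 for Cspg5. Without the 2 sub-clusters of LPA nuclei, chosen after seeing the data, the values were -0.51, -0.31, 0.65 and 0.19, and none passed in edgeR's test (adjusted p = 0.0734, 0.512, 0.565 and 0.754). At Leiden resolution 2 the difference was -0.24 for Tnr, -0.21 for Tnc and -0.16 for Hapln1, none of which passed in edgeR's test (adjusted p = 0.225, 0.384 and 0.586), and -0.33 for Cspg5, which passed in the opposite direction (adjusted p = 0.00633).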

How the results depend on the processing

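Of the member calls within cell types, 5 became 3 at Leiden resolution 2, of which only Tnr in ciliated ependymal cells was among the 5. They became 2 without the 2 Gfap-rich sub-clusters and 3 to 5 when single libraries were left out. The 8 calls in whole classes and all nuclei became 6 to 10 when single libraries were left out. The 4 members that differed between Gfap-rich and other astrocytes became 0 without the sub-clusters, and 3 to 4 when single libraries were left out. At resolution 2 Hapln1, Tnc and Tnr were no longer called in Gfap-rich astrocytes, Ncan and Cspg5 were, and Vcan in Dlx-rich neuronal nuclei was not tested. There the difference between subtypes reversed to -0.16 for Hapln1 and -0.33 for Cspg5, and Hapln1 in Gfap-rich astrocytes reversed to -0.27. The cause was not tested. Shares differed (LPA minus vehicle, in percentage points, single libraries left out) by 9.85 to 12.4 for OPCs, 0.167 to 0.464 for cycling OPCs, 5.36 to 6.17 for committed precursors, -0.867 to 0.0158 for newly formed, -7.02 to -3.73 for myelin-forming and -13.4 to -9.89 for mature oligodendrocytes. They differed by 13.4 to 14.4 for Gfap-rich, -8.15 to -3.66 for Slc6a11 Agt and -9.73 to -6.20 for telencephalic-type astrocytes. The newly formed share reversed without vehicle 1. Deviations of same-numbered libraries had correlations of 0.107, 0.244 and -0.0327 over all nuclei, beside -0.265 to 0.199 for libraries of unlike number. With so few libraries these values cannot decide whether the numbers pair them. With the replicate number as a block, Tnr in ciliated ependymal cells was lost and Tnr in meningeal cells was gained, so that the calls were again 5 within types, and 9 in whole classes and all nuclei. Low counts limit Acan, Hapln1 and Hapln2 outside their main types.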

Other observations

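In ciliated ependymal cells 2 genes of the matrix lists were higher in LPA, where 1.86% of 8156 genes were called. They were 1 of 4 related proteoglycans and partners and 1 of 2 hyaluronan genes tested. None of 10 enzymes, 3 receptors and 9 proteases and inhibitors was called. Ptprz1, a receptor phosphatase that carries chondroitin sulfate, was 687 CPM in the mean of the LPA and 509 CPM in that of the vehicle libraries (log2 0.42, edgeR quasi-likelihood adjusted p = 0.0456). The hyaluronan receptor gene Cd44 was 38.04 and 7.87 CPM (1.92, edgeR quasi-likelihood adjusted p = 0.0254). Its libraries were at 24.5, 54.4 and 35.2 CPM in LPA and at 12.9, 0.0 and 10.7 CPM in vehicle, so the vehicle level was near the floor. Other settings are not given for these 2 genes.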
